A study of Solenopsis invicta with 52 samples.

Results

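The genes described here fill rows 4728 to 5230 of the deposited count files of the fire ant Solenopsis invicta, 503 of 16314 gene rows. The stretch was selected on the measured pBL over pBB expression differences (SB/Sb over SB/SB workers), which gathered in it, so the contrast of these genotypes is given as a description and supports nothing by itself. The files pair no identifier with a gene name or position, and 0 of the 16314 identifiers matched the RefSeq gene table of the species. Genes are therefore called by their rows, a few with their identifiers, and no role, coordinate or sequence is given. Whether neighbouring rows are neighbours on a chromosome cannot be read from the files. Among the 503 genes, 44.3% carried an identifier number within 10 of that of the row before, against 44.4% of the other rows.

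As background, colonies of this ant have either a single queen, the monogyne form, or several, the polygyne form. The form goes with a supergene, a block of a chromosome whose variants SB and Sb recombine little in SB/Sb carriers. Monogyne workers carry SB/SB, while polygyne colonies hold SB/SB and SB/Sb workers. The Sb variant is inherited much like a non-recombining sex chromosome, and such a variant can come to differ from its partner in sequence and in expression.

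Worker pupae were moved from donor to host colonies, and brain and gaster (the abdomen behind the waist) were sequenced from single minor workers of 0.6 to 0.9 mg, aged 14 to 16 days, 16 days after the move. The pBL workers were SB/Sb, of polygyne origin and raised by polygyne hosts. The pBB workers were SB/SB of the same origin and kind of host, the mpBB workers SB/SB of monogyne origin in polygyne hosts, and the mBB workers SB/SB of monogyne origin in monogyne hosts. Each of the 4 groups had 7 brains and 6 gasters, from 32 individuals of which 20 gave both tissues. Polygyne hosts held SB/Sb queens and monogyne hosts an SB/SB queen, so that host form and the genotype of the queen cannot be told apart. All groups were fostered, and every host had 250 marked workers.

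Brain libraries held 14527840 to 70040807 counts in genes and gaster libraries 30006031 to 77315812. Levels are in CPM, counts per 1000000 of the library after scaling by edgeR's TMM factor. The brain libraries pBL 2 and mBB 4 correlated less with the other brains than the rest did. Without them the number of genes of the stretch called between pBL and pBB brains was 23, as with them. Brain and gaster came from different library kits, so that levels are given within each tissue and only differences between groups are compared between tissues. In whole tissue, more cells that express a gene and more RNA per cell cannot be told apart.

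The genes of the stretch were detected about as often as those of the other rows. After edgeR's filter on low counts, 390 of its genes were tested in brain and 385 in gaster, 353 in both tissues and 81 in neither. In brain these were 77.5% of the stretch, against 73.5% of the other rows, and in gaster 76.5% against 70.8%. At least 10 counts in every library were reached by 310 genes in brain (61.6%, against 61.6% of the other rows) and by 325 in gaster (64.6%, against 61.0%). In 42 genes no brain library reached 10 counts (8.35%, against 12.4% of the other rows), and in 91 genes no gaster library did (18.1%, against 23.7%). The equally long runs of rows on either side had more tested genes. Just before, these were 91.1% in brain and 90.5% in gaster, and just after, 83.5% and 79.1%.

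The summed level of the 503 genes barely differed between the groups. In brain it averaged 32330 ± 1136 CPM in pBL, 32509 ± 1127 CPM in pBB, 31954 ± 1164 CPM in mpBB and 32387 ± 1082 CPM in mBB (SD, n = 7 each). In gaster it averaged 62099 ± 9978 CPM in pBL, 57641 ± 8445 CPM in pBB, 59861 ± 16328 CPM in mpBB and 59158 ± 16759 CPM in mBB (SD, n = 6 each). The group means lay within 1 SD of each other in both tissues. The spread between libraries was much wider in gaster than in brain.

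Within this total, a small set of genes of the stretch differed by genotype. In brain 23 of the 390 tested genes were called between pBL and pBB at an adjusted p under 0.05 (edgeR quasi-likelihood, Benjamini-Hochberg over 12006 genes), where 0.516% of all tested genes were called. Of these, 21 were higher in pBL (0.458% of all tested genes) and 2 were lower (0.0583%). In gaster 22 of 385 were called, where 0.596% of all 11574 tested genes were, with 17 higher (0.501%) and 5 lower (0.095%). The stretch held 37.1% of the 62 brain calls and 31.9% of the 69 gaster calls. These shares restate why the rows were chosen. They also cover few of the genes, since 384 of the 422 genes tested in either tissue were called in neither.

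The called genes were minor in abundance. Summed over the 23 genes called in brain, the level ran from 494 to 661 CPM in pBL brains with a median of 595 CPM. It ran from 263 to 341 CPM in pBB, from 286 to 342 CPM in mpBB and from 279 to 342 CPM in mBB brains. The pBL brains stood above all SB/SB brains, and the 3 SB/SB groups covered much the same range. In both tissues the genes were called between pBL and pBB in these same libraries, most of them as higher in pBL. A pBL sum above the pBB sum thus largely follows from the choice of genes. Over the 22 genes called in gaster the sum ran from 544 to 690 CPM in pBL, 434 to 515 CPM in pBB, 431 to 566 CPM in mpBB and 442 to 502 CPM in mBB, so that the lowest pBL gaster overlapped the highest mpBB gaster.

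The called genes are described in 3 classes, those higher in pBL with under 1 CPM in the SB/SB groups, the others higher in pBL, and those lower in pBL. In brain, 8 of the genes called higher had mean levels below 1 CPM in all SB/SB groups, and their log2 fold changes of pBL over pBB had a median of 3.84 and ran from 1.52 to 5.68. The other 13 had a median of 1.20 and ran from 0.36 to 4.70, and the 2 lower ones had -1.19 and -1.04. In gaster the 6 genes of the first class had a median of 4.80 and ran from 2.13 to 7.51. The other 11 had a median of 1.13 with a range from 0.39 to 2.92, and the 5 lower genes a median of -0.97 with a range from -1.05 to -0.78. A gene of the first class could be called only through its level in pBL, so that its large fold change partly follows from how the class is defined.

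**Figure D1:**
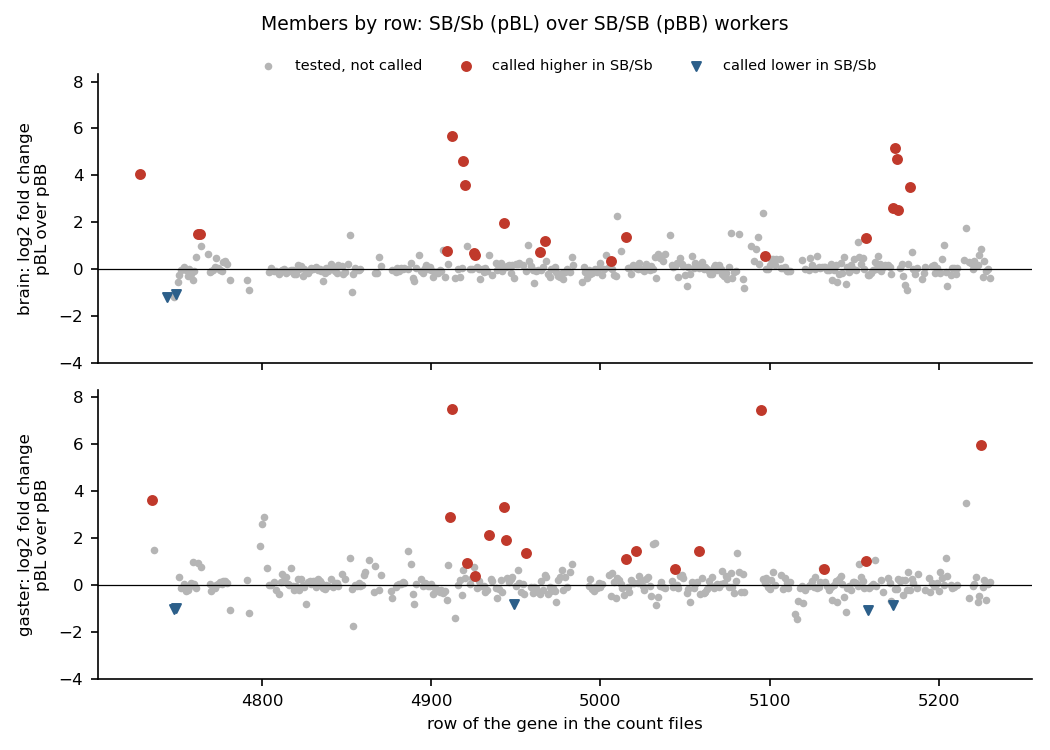
Log2 fold change of pBL (SB/Sb) over pBB (SB/SB) for each tested gene of the stretch, by its row, in brain (top) and gaster (bottom). Red points are the 21 brain and 17 gaster genes called higher in pBL, blue triangles the 2 and 5 called lower, and grey points tested genes that were not called. The calls are scattered, with a run of 145 rows from row 4764 to row 4908 that holds none.

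Along the rows the calls were scattered rather than even, as the plot of fold change by row shows. The first call was row 4728 and the last row 5225. From row 4764 to row 4908, 145 rows in all, no gene was called in either tissue, although 97 of them were tested in brain and 103 in gaster. At an unadjusted p under 0.05, edgeR gave 9 of these in brain and 19 in gaster (3.04% and 4.67% of all uncalled genes). Their median absolute log2 fold change was 0.10 in brain and 0.17 in gaster, against 0.08 and 0.11 over all uncalled genes. Calls in adjacent rows formed 4 pairs or longer runs in each tissue, the longest being rows 5173 to 5176 in brain. The others in brain were rows 4762 and 4763, rows 4919 and 4920, and rows 4925 and 4926. Those in gaster were rows 4748 and 4749, rows 4911 and 4912, rows 4943 and 4944, and rows 5157 and 5158.

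The lower edge of the stretch was sharp in brain and the upper edge was not an edge in either tissue. The rows were chosen on this same contrast, and the first row, 4728, was itself called in brain. A step at that edge thus partly follows from the choice, and the values at both edges are a description. In brain the median absolute log2 fold change of pBL over pBB was 0.25 in the first 50 rows of the stretch, against 0.05 in the 50 rows before them. In gaster these medians were 0.14 and 0.12. No gene was called in the 503 rows before the stretch in either tissue. In the last 50 rows the median was 0.21 in brain and 0.22 in gaster, and in the 50 rows after the stretch 0.17 and 0.22. In rows 5281 to 5330, outside, it reached 0.37 in brain and 0.38 in gaster, and in rows 5431 to 5480 it was 0.06 and 0.11. Inside the stretch the medians were not level. In the windows of 50 rows from row 4778 to row 4927 they were 0.11, 0.10 and 0.12 in brain, and 0.23, 0.16 and 0.24 in gaster. The 503 rows after the stretch held 10 calls in brain (2.38% of those tested) and 10 in gaster (2.51%).

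**Figure D2:**
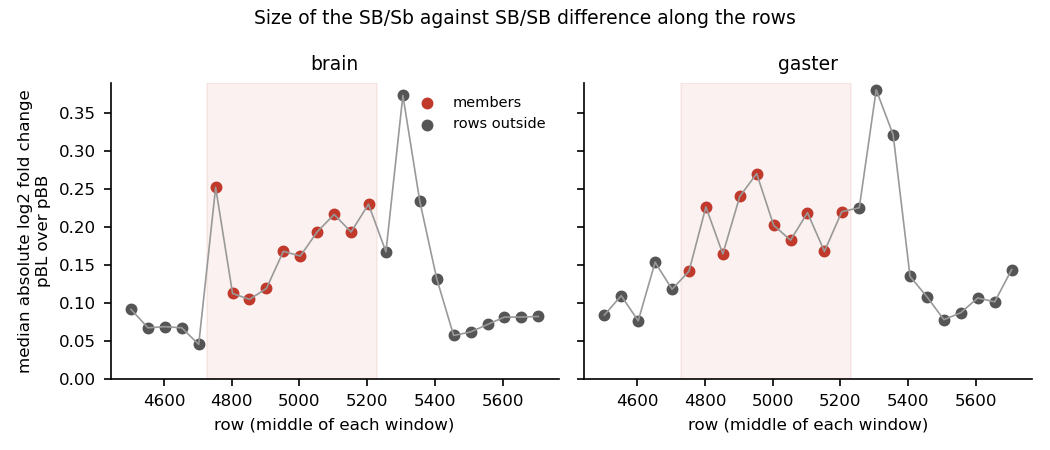
Median absolute log2 fold change of pBL over pBB in windows of 50 rows, against the middle row of each window, in brain (left) and gaster (right). Red points and the shaded band are the stretch and dark points the rows outside. In brain the medians climb at the left edge (0.25 against 0.05 in the window before) and fall to 0.10 to 0.12 in rows 4778 to 4927. Past the right edge they reach 0.37 in brain and 0.38 in gaster, and are 0.06 and 0.11 in rows 5431 to 5480.

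At the left edge, the gene of row 4727, just outside, had 0.0808 to 1.38 CPM in pBL brains (median 0.180) and 0.165 to 0.814 CPM in pBB brains (median 0.392). The groups overlapped. The gene of row 4728, the first inside, had 1.16 to 5.49 CPM in pBL brains (median 1.91), and all SB/SB brains were at or under 0.504 CPM. In gaster that gene was near silent in every group, with at most 0.112 CPM, and was not tested. At the right edge, row 5230 had 7.75 to 13.1 CPM in pBL brains (median 10.9) and 8.87 to 17.5 CPM in pBB brains (median 14.4), which overlapped. Row 5231, just outside, had 2.27 to 101 CPM in pBL brains and 2.12 to 78.0 CPM in pBB brains, a spread within each group that exceeded any difference between them.

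Taken as a set, the genes of the stretch that were not called differed more by genotype than all uncalled genes did. The same contrast chose the rows, so that this excess partly follows from the choice and is a description. Their median absolute log2 fold change of pBL over pBB was 0.16 for the 367 uncalled genes in brain, against 0.08 over all uncalled genes. For the 363 uncalled genes in gaster it was 0.20, against 0.11. In brain 13.4% of them differed by over 0.5 on the log2 scale (7.18% of all uncalled genes) and in gaster 16.5% (9.19%). The direction was mixed, since 56.1% of the uncalled genes of the stretch were higher in pBL brains, as were 56.1% of all uncalled genes. In gaster these shares were 52.1% and 49.5%. The median log2 fold change over all tested genes of the stretch was 0.03 in both tissues, against 0.02 over all genes in brain and 0.00 in gaster.

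Rows 5173 to 5176 were the longest run of called genes, and their differences by genotype were not alike in brain and gaster. In brain all 4 were at or under 2.76 CPM in every SB/SB library. Row 5175 had 47.5 to 66.0 CPM in pBL brains with a median of 55.0 CPM, and 1.52 to 2.70 CPM in pBB brains with a median of 2.09 CPM. Row 5174 (SINVBB1_01570) had 8.49 to 13.9 CPM in pBL brains with a median of 12 CPM, and 0.0979 to 0.950 CPM in pBB brains with a median of 0.291 CPM. Neither gene overlapped between the groups, and the mpBB and mBB brains lay with the pBB brains.

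The fitted log2 fold changes in brain were 4.70 ± 0.24 (SE) at row 5175, 5.16 ± 0.53 at row 5174, 2.53 ± 0.26 at row 5176 and 2.62 ± 0.36 at row 5173. In gaster all 4 genes were well expressed in every group. Row 5175 had 78.7 to 98.7 CPM in pBL gasters and 69.8 to 126 CPM in pBB gasters. Row 5174 had 20.8 to 34.1 CPM in pBL gasters and 19.9 to 40.7 CPM in pBB gasters. These ranges overlapped fully, with log2 fold changes of -0.17 ± 0.15 and -0.15 ± 0.27, neither called.

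The exception among the 4 was row 5173, the only gene of the stretch called in opposite directions. In brain it had 2.55 to 4.96 CPM in pBL (median 4.12) and 0.261 to 1.51 CPM in pBB (median 0.581). In gaster it had 25.9 to 44.0 CPM in pBL (median 33.3) and 53.5 to 70.2 CPM in pBB (median 60.4). The groups did not overlap in either tissue, and the gaster log2 fold change was -0.86 ± 0.15. The mpBB gasters, at 46.6 to 75.6 CPM, and the mBB gasters, at 51.4 to 88.1 CPM, were also all above the pBL gasters.

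**Figure D3:**
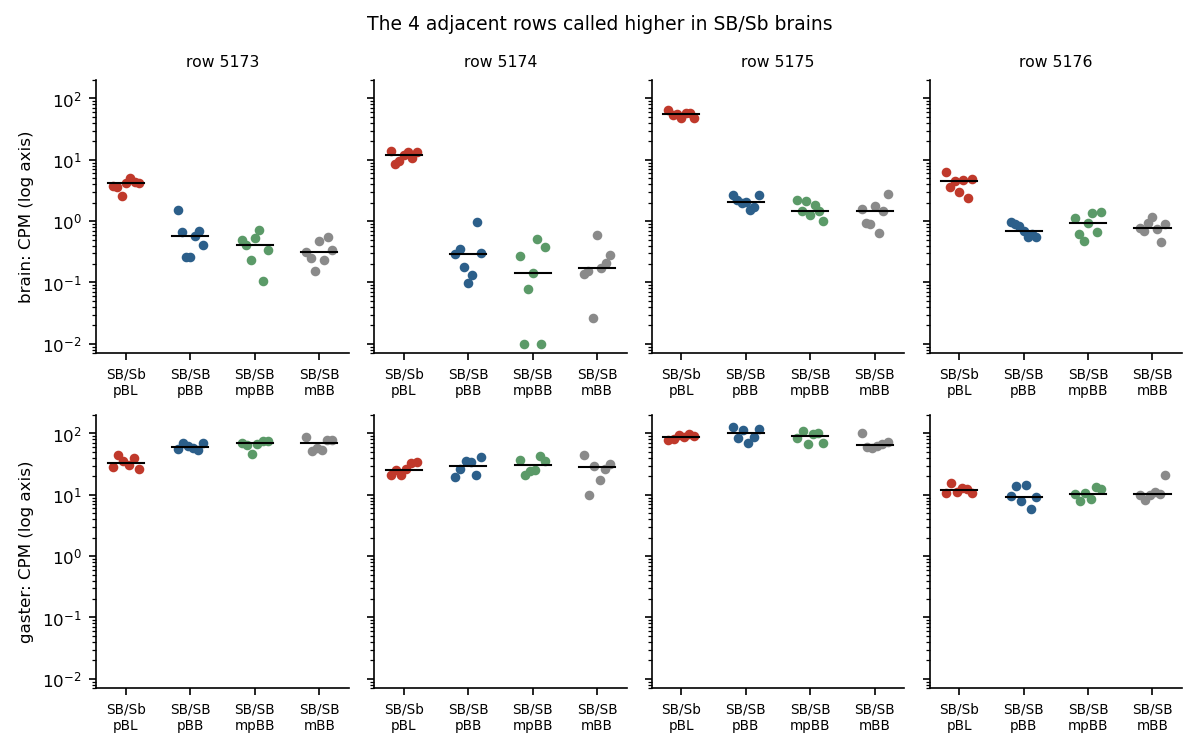
CPM on a log axis in every library for rows 5173 to 5176, in brain (top, 7 libraries a group) and gaster (bottom, 6 a group). Points are libraries, lines are group medians, and values under 0.01 CPM are drawn at 0.01. In brain every pBL point lies above every SB/SB point, while in gaster pBL is lower at row 5173 and overlaps the SB/SB groups in the other 3 rows.

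The fits of both tissues could test 20 of the genes called in brain and 19 of those called in gaster. The 7 genes shared by both sets of calls were 35.0% of these brain calls and 36.8% of these gaster calls, and 6 of them had the same direction. Over the called genes of the other rows these shares were 51.4% and 52.9%, a difference that was not tested. Besides row 5173 they were rows 4749, 4912, 4926, 4943, 5015 and 5157. Brain and gaster of the same individuals share their genotype, and 20 of the individuals gave both.

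Row 4943 (SINVBB1_06156) was higher in every SB/Sb library of both tissues. It had 13.9 to 19.1 CPM in pBL brains (median 14.3) and 2.88 to 5.49 CPM in pBB brains (median 3.64). In gaster it had 5.84 to 8.33 CPM in pBL (median 7.19) and 0.375 to 0.995 CPM in pBB (median 0.760). All pBL libraries stood clear of all SB/SB libraries in both tissues, and the log2 fold change was 1.97 ± 0.16 in brain, against 3.34 ± 0.28 in gaster. Its neighbour in row 4944 was among the well-expressed genes of the brain, with 523 to 645 CPM in pBL and 513 to 643 CPM in pBB, and was not called there (log2 fold change 0.08 ± 0.06). In gaster that neighbour had 14.0 to 21.8 CPM in pBL and 1.98 to 6.04 CPM in pBB, without overlap, a log2 fold change of 1.94 ± 0.28.

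Row 5157 had 23.3 to 31.4 CPM in pBL brains (median 27.3) and 9.24 to 12.3 CPM in pBB brains (median 11.3). In gaster it had 25.1 to 31.9 CPM in pBL (median 26.0) and 9.25 to 21.4 CPM in pBB (median 10.5). Its log2 fold changes were 1.32 ± 0.11 and 1.04 ± 0.19, close to each other, and no SB/SB library of either tissue reached the pBL range. The neighbour in row 5158 (SINVBB1_00337) ran the other way in gaster, with 58.9 to 84.9 CPM in pBL (median 71.8) and 105 to 197 CPM in pBB (median 141). Its log2 fold change was -1.05 ± 0.19 in gaster and -0.24 ± 0.09 in brain, where it was not called.

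Row 4912 (SINVBB1_08239) had the largest fitted fold change of the called genes in each tissue and was not uniform among SB/Sb workers. Its 7 pBL brains had 0.0734, 0.0793, 1.97, 13.4, 15.8, 21.6 and 27.5 CPM, and its pBB brains had at most 0.579 CPM. Its 6 pBL gasters had 0.0313, 1.98, 2.68, 3.20, 3.73 and 7.97 CPM, and its pBB gasters had at most 0.0621 CPM. Worker pBL 5 gave the value 0.0793 CPM in brain and 0.0313 CPM in gaster, 2 counts in each tissue, so that the gene was near silent in both tissues of the same SB/Sb worker. Worker pBL 4, the other near-silent brain, also with 2 counts, has no gaster library here. The 4 workers with both tissues other than pBL 5 had at least 13.4 CPM in brain and 1.98 CPM in gaster.

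Row 4912 had a log2 fold change of 5.68 ± 1.06 in brain. In gaster it was 7.51 ± 1.02, where the pBB gasters held 5 counts in all. With the replicate number as a block the brain value was 5.51 and no longer called (adjusted p = 0.0860, edgeR).

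Rows 4748 (SINVBB1_15423) and 4749 (SINVBB1_13673) were lower in SB/Sb workers of both tissues. Row 4749 had 5.92 to 13.6 CPM in pBL brains (median 10.8) and 17.1 to 25.9 CPM in pBB brains (median 21.4). In gaster it had 2.07 to 3.81 CPM in pBL (median 2.55) and 3.92 to 7.92 CPM in pBB (median 4.55). Row 4748 had 5.96 to 16.3 CPM in pBL brains (median 7.96) and 13.3 to 36.9 CPM in pBB brains (median 19.0), which overlapped through 1 pBL brain. In gaster it had 1.18 to 1.66 CPM in pBL (median 1.42) and 2.16 to 3.72 CPM in pBB (median 2.78).

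The log2 fold changes lay near -1 throughout. They were -1.04 ± 0.19 at row 4749 and -1.19 ± 0.32 at row 4748 in brain, and -0.97 ± 0.23 and -1.02 ± 0.18 in gaster. The brain value of row 4748 was not called (adjusted p = 0.119, edgeR) but was with the replicate block, at -1.2. The gaster value of row 4749 was at the threshold (adjusted p = 0.0496, edgeR) and was not called without the gaster library pBB 1, at -0.82. The SB/SB worker mpBB 15 had low values at both rows in both tissues. It had 6.90 and 9.70 CPM in brain at rows 4748 and 4749, within the pBL range, where the other mpBB brains had at least 15.1 and 18.9 CPM. In gaster it had 2.29 and 3.18 CPM, the lowest of the mpBB gasters at both rows.

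**Figure D4:**
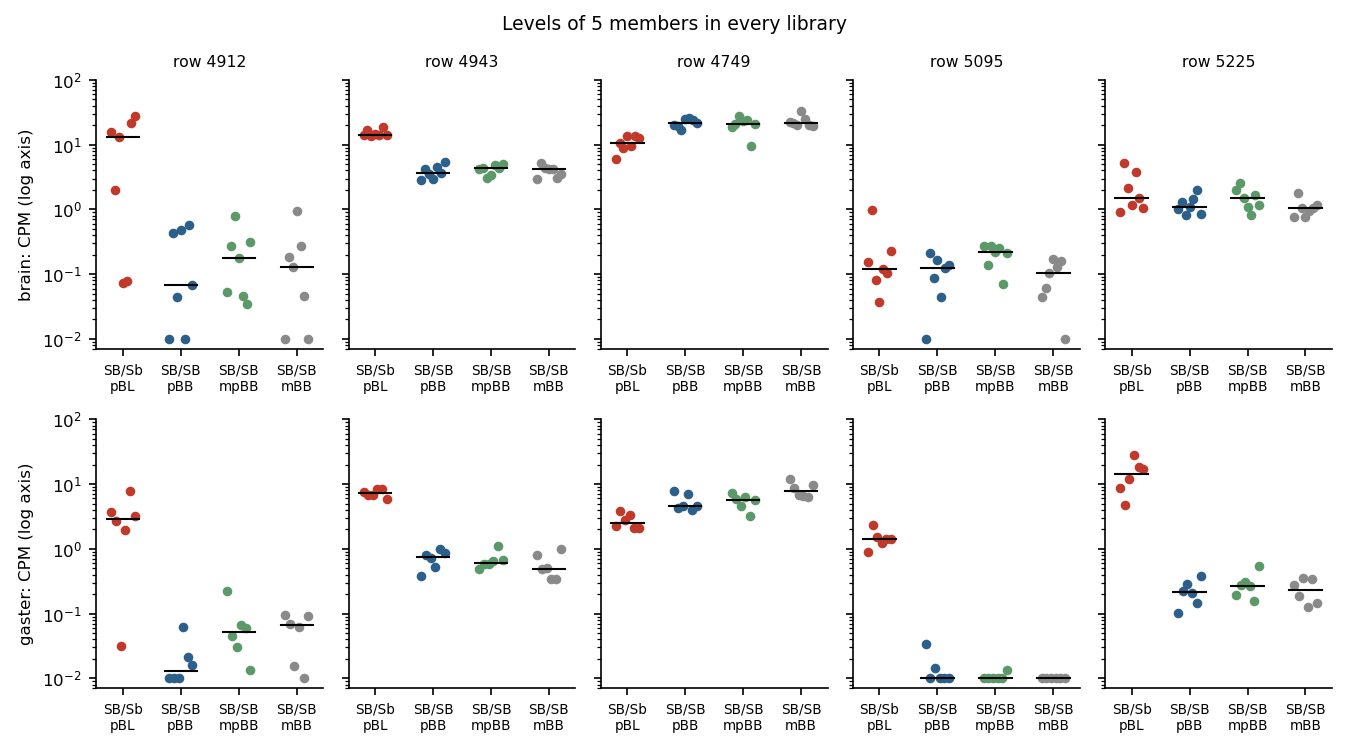
CPM on a log axis in every library for 5 genes of the stretch, in brain (top, 7 libraries a group) and gaster (bottom, 6 a group). Points are libraries, lines are group medians, and values under 0.01 CPM are drawn at 0.01. Row 4912 splits the pBL libraries into high and near-silent ones, row 4943 is high in all of them, row 4749 is low, and rows 5095 and 5225 stand out in gaster alone.

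Some differences were large in gaster where the gene was not called in brain. Row 5225 (SINVBB1_14741) had 4.68 to 28.3 CPM in pBL gasters with a median of 14.6 CPM, and 0.102 to 0.385 CPM in pBB gasters with a median of 0.215 CPM, a log2 fold change of 5.98 ± 0.45. In brain it had 0.928 to 5.13 CPM in pBL and 0.834 to 1.98 CPM in pBB, with a log2 fold change of 0.88 ± 0.34 that was not called. Row 5095 had 0.905 to 2.31 CPM in pBL gasters, 52 to 144 counts a library. The pBB gasters held 2 counts of it in all, the mpBB gasters 1 and the mBB gasters 0, and it was the only gene of the stretch with at least 10 counts in every SB/Sb and fewer in every SB/SB library of a tissue. In brain it was under 1 CPM in every group and was not tested.

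Row 4911, next to row 4912, had 6.28 to 9.55 CPM in pBL gasters with a median of 8.53 CPM, and 0.561 to 1.81 CPM in pBB gasters with a median of 1.12 CPM. The mBB gasters were higher, at 1.05 to 5.61 CPM, but still under every pBL gaster. In brain row 4911 was not tested, with 0.0734 to 1.07 CPM in pBL (median 0.580), and 6 of the 7 pBL brains exceeded all SB/SB brains, which had at most 0.321 CPM. Row 5058 had 4.93 to 9.02 CPM in pBL gasters and 1.71 to 3.21 CPM in pBB gasters, with mpBB gasters up to 4.98 CPM that just reached the pBL range. In brain row 5058 had a log2 fold change of 0.06 ± 0.19.

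In brain, rows 4919 and 4920 showed a pattern like that of rows 5174 and 5175. Row 4919 had 5.21 to 21.8 CPM in pBL brains (median 8.41) and 0.0826 to 0.790 CPM in pBB brains (median 0.409). Row 4920 had 3.83 to 11 CPM in pBL brains (median 6.03) and 0.307 to 0.979 CPM in pBB brains (median 0.571). Their log2 fold changes were 4.62 ± 0.49 and 3.61 ± 0.38 in brain, without overlap. In gaster both were expressed in all groups, with log2 fold changes of 0.63 ± 0.30 and 0.30 ± 0.20, neither called.

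The comparisons of pBL with the SB/SB workers of monogyne origin share their SB/Sb libraries with the contrast that chose the rows and with each other, so that their counts are a description. Of all tested genes 0.5% were called between pBL and mpBB brains, 0.536% between these gasters, 0.566% between pBL and mBB brains and 0.769% between these gasters. In the stretch 22 genes in brain and 22 in gaster were called between pBL and mpBB. Between pBL and mBB these were 25 and 27. Of the 23 genes called against pBB in brain, 21 were called in the same direction against mpBB and 21 against mBB. Of the 22 called in gaster, 20 were so against mpBB and 17 against mBB.

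Every pBL brain exceeded all 21 SB/SB brains in 13 genes of the stretch, where 0.3% of all tested genes did so, and every pBL gaster exceeded all 18 SB/SB gasters in 12, where 0.415% did. Every pBL gaster was below all SB/SB gasters in 3 genes (0.0346% of all tested), and no gene of the stretch had every pBL brain below all SB/SB brains (0%). The mpBB and mBB libraries were not in the contrast that called the genes, but shared its filter, scaling and estimate of spread. They were placed by how many called genes lay nearer to the pBL than to the pBB mean on the log2 scale, as a description. In brain this was 0 to 3 of 23 genes in mpBB libraries and 0 to 5 in mBB libraries. In gaster it was 1 to 3 of 22 genes in mpBB libraries and 1 to 5 in mBB libraries. Worker mpBB 15 had 3 in each tissue.

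The mpBB and mBB workers differ in the form of their host colony. Their comparison used no pBL or pBB library except through the shared filter, scaling and estimate of spread. No gene of the stretch was called in brain or gaster by edgeR, which called 0% of all tested genes in both tissues. DESeq2 also called 0 in the stretch, and 1 gene over all rows in brain and 0 in gaster. At an unadjusted p under 0.05, edgeR gave 5 genes of the stretch in brain (1.28%, against 2.27% of all tested genes) and 14 in gaster (3.64%, against 4.58%). The median absolute log2 fold change was 0.09 in brain, against 0.08 in the other rows, and 0.13 in gaster, against 0.12.

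The smallest p in brain belonged to row 4921, with 1.93 to 5.48 CPM in mpBB (median 3.19) and 0.807 to 2.88 CPM in mBB (median 1.57). The groups overlapped, and the log2 fold change was 1.04 ± 0.32 (edgeR adjusted p = 1). In gaster it belonged to row 4881, with 20.6 to 24.1 CPM in mpBB (median 22.3) and 23.1 to 30.5 CPM in mBB (median 27.7), a log2 fold change of -0.31 ± 0.09 (edgeR adjusted p = 0.9999). Neither passed the threshold.

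The other comparisons among SB/SB workers share the pBB libraries with the contrast that chose the rows. Between pBB and mpBB, which differ in origin, no gene of the stretch was called by edgeR (0% of all tested genes in either tissue). DESeq2 also called 0 in the stretch, and 1 gene over all rows in brain and 6 in gaster. At an unadjusted p under 0.05, edgeR gave 8 in brain (2.05%, against 1.57% of all) and 7 in gaster (1.82%, against 2.72%). The smallest p in brain was at row 5096, with 0.620 to 3.93 CPM in pBB (median 1.60) and 0.298 to 30.0 CPM in mpBB (median 8.02), a log2 fold change of -2.28 ± 0.79. In gaster it was at row 5058, described above against pBL, with a log2 fold change of -0.48 ± 0.18.

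Between pBB and mBB, which differ in origin and host, edgeR called no gene of the stretch in brain (0% of all tested) or in gaster (0.0605% of all tested, 7 genes). DESeq2 called 0 of the stretch in brain, with 4 over all rows, and 11 in gaster, with 290 over all rows. At an unadjusted p under 0.05, edgeR gave 19 in brain (4.87%, against 4.14% of all) and 46 in gaster (11.9%, against 13%). The smallest p in gaster was at row 4900, with 59.0 to 70.8 CPM in pBB (median 62.2) and 71.8 to 81.5 CPM in mBB (median 77.0). These groups did not overlap, and the log2 fold change was -0.27 ± 0.06 (edgeR adjusted p = 0.0730). In brain it was at row 4954, where 1 pBB brain had 4.77 CPM and the others 0.268 to 0.989 CPM, and the mBB brains had 0.0463 to 0.382 CPM, a log2 fold change of 2.55 ± 0.73 (edgeR adjusted p = 0.935).

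**Figure D5:**
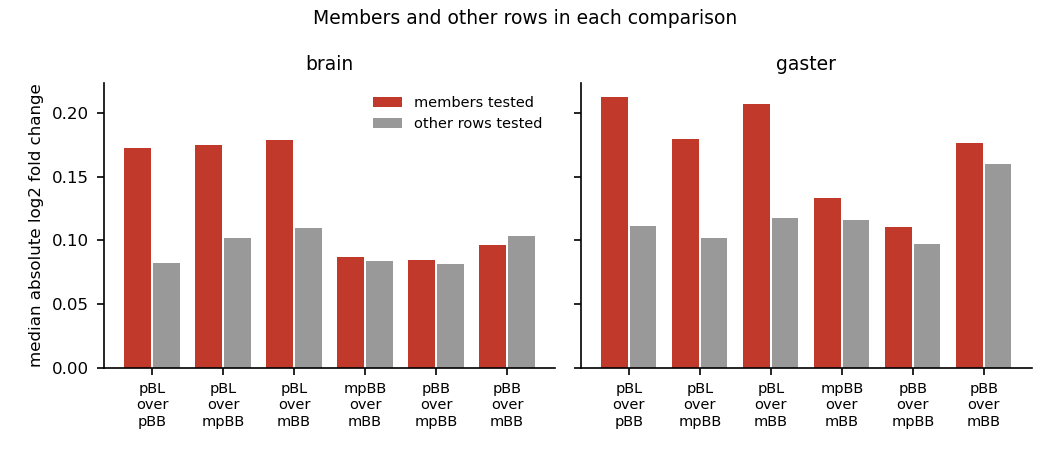
Median absolute log2 fold change of the tested genes of the stretch (red) and of the other tested rows (grey) in each of 6 comparisons, in brain (left, 7 libraries a group) and gaster (right, 6 a group). The rows were chosen on pBL over pBB. Red exceeds grey clearly in the 3 comparisons with pBL (0.17 against 0.08 for pBL over pBB in brain, 0.21 against 0.11 in gaster). Red lies near grey among the SB/SB groups (0.09 against 0.08 for mpBB over mBB in brain, 0.13 against 0.12 in gaster).

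Set side by side, the comparisons with pBL had median absolute log2 fold changes in the stretch of 0.17, 0.18 and 0.18 in brain against pBB, mpBB and mBB, where the other rows had 0.08, 0.10 and 0.11. In gaster they were 0.21, 0.18 and 0.21, where the other rows had 0.11, 0.10 and 0.12. Without pBL the stretch had 0.08 to 0.10 in brain and 0.11 to 0.18 in gaster, the highest being that of pBB over mBB, where the other rows had 0.16. These comparisons share libraries and are not independent of each other, and the rows were chosen on pBL over pBB.

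Within groups the genes of the stretch varied slightly more than other genes, in every group of both tissues. The median SD of log2 CPM between libraries was 0.34 in pBL brains for the stretch and 0.33 for the other rows. It was 0.29 and 0.27 in pBB brains, 0.28 and 0.26 in mpBB and 0.32 and 0.31 in mBB. In gaster it was 0.32 and 0.31 in pBL, 0.30 and 0.27 in pBB, 0.35 and 0.31 in mpBB, and 0.33 and 0.30 in mBB. Among genes not called for genotype, the SB/SB brains with the most uneven levels were those of rows 5010 and 5012. Row 5010 had 10.4 CPM in the brain mpBB 10 and 7.03 CPM in the brain mBB 3, and at most 0.510 CPM in the other brains of these 2 groups. Row 5012 had 4.63 and 5.26 CPM in the same 2 brains and at most 0.708 CPM in the others. In gaster, where both genes were well expressed, row 5010 had 193 to 487 CPM and row 5012 20.5 to 226 CPM over the mpBB and mBB libraries.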

How the data were processed

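The authors deposited raw counts of reads per gene, unstranded and by strand, for 28 brain and 24 gaster libraries. Per the submitters' processing notes, Trim Galore, STAR and edgeR were used; the sources used here do not give versions or a genome build. Per the labels' protocols, the brain kit was a low-input one without strand and the gaster kit was stranded, so column 2 was read for brain and column 4 (reverse strand) for gaster. Reads from a gene and its antisense partner cannot be told apart in brain, and genes with near-identical copies are uncertain because multimapped reads are not counted. The 4 rows that name no gene stayed out of library sizes and tests. In brain they held 6.73% to 29.2% unmapped, 6.38% to 10.3% multimapped, 34.9% to 43.0% no-feature and 1.40% to 2.56% ambiguous reads, and in gaster 11.2% to 53.4%, 7.68% to 16.3%, 9.75% to 15.9% and 0.298% to 0.683%.

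Rows were numbered from 1 after those 4 rows. In R 4.3.3, edgeR 4.0.16 filtered genes by group expression (12006 in brain, 11574 in gaster), scaled libraries by TMM and fitted all 4 groups of a tissue in 1 quasi-likelihood model without covariates. P-values were adjusted by Benjamini-Hochberg over all tested genes. CPM are relative to the scaled library, and the SD of log2 CPM used a pseudocount of 0.1. The fit was tested on simulated data. Genes were named by a rule: per tissue the largest and smallest called fold changes above a mean log2 CPM of 1, genes called in both tissues, the rows at each edge, the smallest p of each SB/SB comparison, the most uneven SB/SB levels, the largest tissue differences, and genes off in SB/SB. Genes in runs of adjacent called rows were added after their values were seen. The stretch, the lists and the rule were chosen with earlier results of these data known. The labels' protocols say that no stock colony was donor or host more than once in a treatment.

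Alternatives were DESeq2 1.42.0, RLE factors, other filters on low counts, the individual number or merged runs as covariate, the unstranded gaster column, a replicate block and leaving out libraries (those over 3 MAD low in correlation, gaster pBB 1, and each pBL and pBB library). Fits within individuals numbered under or over 140 and the single left-out libraries were added after seeing the data. The groups pBL, pBB and mBB share replicate numbers. Same-numbered pBL and pBB brains shared their deviations from the group mean in each of 7 pairs (correlations from 0.143 up to 0.497, with a mean of -0.06 among differently numbered ones). The pairing is taken from the data, since no label explains the number.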

Additional observations from a re-analysis of the deposited data

Results flagged for a closer look

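Row 5173 was flagged because its genotype difference had opposite signs in brain and gaster in every SB/Sb library, with log2 fold changes of pBL over pBB of 2.62 in brain and -0.855 in gaster. The difference between the tissues was not tested.

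Single libraries far from the rest of their group, by Dixon's test, numbered 42 over the 224 groups of libraries tested, for the genes named here and the summed levels. Chance flags about 1 in 20 groups, and skewed levels near 0 add to this. The summed CPM of all 503 genes was 92000 in the gaster mBB 1, which also had the outlying 182 CPM at row 4954 and 101 CPM at row 5175.

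Among SB/Sb libraries, the brain pBL 2, one of those that stand apart, had 1.38 CPM at row 4727, 5.49 CPM at row 4728 and 43.3 CPM at row 5096. The brain pBL 5 had 11.1 CPM at row 4921 and 4.32 CPM at row 4954, and the brain pBL 1 had 47.7 CPM at row 5158. The gaster pBL 8 had 232 CPM at row 4921, 79.9 CPM at row 4926 and 21.8 CPM at row 4944. Other SB/Sb gasters were pBL 1 with 7.73 CPM at row 4727, pBL 3 with 1.09 CPM at row 5204 and pBL 7 with 31.9 CPM at row 5157.

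At row 4748 the brains pBL 4, pBB 4, mpBB 12 and mBB 4 were each the outlying library of their group, with 16.3, 36.9, 36.1 and 57.5 CPM. The brain mBB 4 also had 33.8 CPM at row 4749, 1.19 CPM at row 4762 and 25.2 CPM at row 5230. These 4 brains were also the lowest of their groups at row 5231, with 2.27, 2.12, 1.30 and 2.55 CPM. The brains pBL 4, pBB 4 and mpBB 12 had the lowest shares of unmapped reads of all brains, 6.94%, 6.73% and 7.19%. The brain mBB 4 had 13.6%, and mBB 7 had 11.1%. Whether these shares go with the levels was not tested.

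Among SB/SB brains, pBB 1 had 4.77 CPM at row 4954 and 1.51 CPM at row 5173, pBB 6 had 1.36 CPM at row 5012, and mpBB 14 had 1.35 CPM at row 4954. The brain mpBB 10 had 10.4 CPM at row 5010 and 4.63 CPM at row 5012, and the brain mBB 3 had 7.03 and 5.26 CPM at these rows. The brain mBB 2 had 1.79 CPM at row 5225 and the brain mBB 5 had 61.4 CPM at row 4925, where the gaster of the same number had 107 CPM.

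Among SB/SB gasters, pBB 8 had 7.44 CPM at row 4762, pBB 6 had 219 CPM at row 5012 and pBB 5 had 15.3 CPM at row 5148. The gaster mpBB 15 had 1.12 CPM at row 4943, mpBB 13 had 46.6 CPM at row 5173 and 2.42 CPM at row 5204, and mpBB 10 had 3.45 CPM at row 5231. The gaster mBB 6 had 43.2 CPM at row 5148 and mBB 8 had 21.0 CPM at row 5176.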

How the results depend on the processing

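No called value reversed under the alternatives run. With each pBL or pBB library left out in turn, genotype calls in the stretch numbered 20 to 25 in brain and 17 to 22 in gaster. Within individuals numbered under 140 they fell to 6 in brain and 7 in gaster, and over 140 to 15 and 10; these fits have fewer samples. In the same fits calls between pBL and mpBB numbered 7 in brain under 140 and 6 and 9 in gaster, and between pBL and mBB 6 and 14 in brain and 8 and 10 in gaster. DESeq2 called more genes over all rows too: 36 of its 108 gaster genotype calls lay in the stretch (22 of 69 by edgeR), and 43 of 174 between pBL and mBB (27 of 89). Between pBB and mBB gasters, where edgeR without covariates called 0, DESeq2 called 11 (of 290 over all rows), the fit with the individual number 3 (of 141) and the replicate block 3 (of 119), where edgeR without covariates called 7 over all rows; the cause was not tested. With the replicate block genotype calls were 28 in brain, 23 higher and 5 lower, of which 21 were shared with the fit without it. In gaster they were 24, 20 higher and 4 lower, with 19 shared. Calls over all rows are not given here for the block's genotype fits, the left-out libraries or the split by individual number. These counts thus do not show whether the stretch or the whole fit gained or lost calls. In gaster the correlations of same-numbered pBL and pBB libraries ran from 0.0928 to 0.494, with a mean of 0.32. The mean was -0.06 among differently numbered ones. Same-numbered pairs with mBB had means of 0.20 (pBB) and 0.17 (pBL) in brain, and 0.15 and 0.21 in gaster. Of 1513 values of named genes, 1453 stayed on their side of the threshold, 53 lost a call and 7 gained one. Depth limits the near-silent genes: below 1 CPM a library holds few reads of a gene.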
